A study of Mus musculus with 11 samples.

Results

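The 10 genes described here are the adiponectin receptors Adipor1 and Adipor2, the nuclear receptor Ppara, and 7 enzymes of mitochondrial fatty acid oxidation (Cpt1a, Cpt2, Acadm, Acadl, Acadvl, Hadha and Hadhb). They were taken by name from the 25311 genes of the deposited table, and all 10 were present. The table held single-cell RNA counts (inDrop, a droplet method that counts unique molecular identifiers, UMIs) from the retinas of 11 C57BL/6J mice at postnatal day 10. Control pups received vehicle (PBS, n = 3 mice), and their littermates received streptozotocin (STZ, n = 3 mice), a toxin of insulin-producing cells that induces hyperglycemia and serves here as a model of Phase I retinopathy of prematurity (Phase I ROP). Pups of a second set of littermates also received STZ and were nursed by dams fed a diet enriched in ω-3 (n = 2 mice) or in ω-6 (n = 3 mice) long-chain polyunsaturated fatty acids. The diet groups had no vehicle-treated mice, the labels name the diet-fed mice and the other mice as separate sets of littermates and put the diets in separate nursing cages, so litter and cage cannot be told apart from the treatments.

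Adiponectin is a hormone of fat tissue that binds Adipor1 and Adipor2, membrane receptors that act through AMP-activated kinase and through PPARα, the transcription factor encoded by Ppara. PPARα binds fatty acids and activates genes of their oxidation. Long-chain fatty acids enter mitochondria as carnitine esters made by Cpt1a and converted back by Cpt2. Acadvl, Acadl and Acadm, the acyl-CoA dehydrogenases for very long, long and medium chains, then carry out the opening step of each cycle, and Hadha and Hadhb, the subunits of the mitochondrial trifunctional protein, carry out the later steps for long chains. Photoreceptors are known to burn fatty acids as well as glucose, and Adipor1 is known to be needed for photoreceptor survival and for retinal docosahexaenoic acid.

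The subunit genes Hadha and Hadhb lie head to head on chromosome 5 (GRCm38, GENCODE M21), with Hadha on the minus strand at chr5:30118304-30155162 and Hadhb on the plus strand at chr5:30155248-30184593. The 85 bases between their outermost annotated starts, at chr5:30155163-30155247, overlap no annotated exon, and they are shown because one short interval borders both genes, whose values are compared below. Adipor1 lies at chr1:134415378-134433351 on the plus strand and Adipor2 at chr6:119353150-119417704 on the minus strand. The 250 bases before a RefSeq start of each receptor gene, at chr1:134415128-134415377 and chr6:119388735-119388984, are shown because the receptors differ in level between cell classes. The second of these windows lies inside the longer GENCODE gene, outside its exons. The sequences come from RefSeq (GRCm38.p6), 5′ to 3′ on the plus strand for the interval and on the gene's own strand for the receptors, and capitals mark every match on either strand to GGGCGG (the GC box), to CCAAT (the CCAAT box) or to AGGTCA (the core of many nuclear receptor sites).
Hadha-Hadhb interval: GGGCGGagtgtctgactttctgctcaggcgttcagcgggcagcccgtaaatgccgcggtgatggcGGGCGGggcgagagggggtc
Adipor1 upstream: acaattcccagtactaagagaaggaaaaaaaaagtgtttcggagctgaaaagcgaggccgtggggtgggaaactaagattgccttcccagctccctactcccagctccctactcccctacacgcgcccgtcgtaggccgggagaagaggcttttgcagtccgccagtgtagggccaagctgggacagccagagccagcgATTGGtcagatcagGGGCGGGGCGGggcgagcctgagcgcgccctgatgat
Adipor2 upstream: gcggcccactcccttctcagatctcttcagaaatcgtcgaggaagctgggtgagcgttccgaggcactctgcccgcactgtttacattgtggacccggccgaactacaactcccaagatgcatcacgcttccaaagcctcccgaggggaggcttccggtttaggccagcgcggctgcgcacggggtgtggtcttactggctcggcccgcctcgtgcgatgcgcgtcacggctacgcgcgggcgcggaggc

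The interval held GGGCGG, which 22.8% of all RefSeq promoters hold in the 85 bases before the start. The Adipor1 window held GGGCGG in overlapping copies and CCAAT as its reverse complement, and the Adipor2 window held none of the 3 motifs. Over 250 bases, GGGCGG was present in 32.7%, CCAAT in 33.8% and AGGTCA in 14.0% of the 32851 promoter windows. The PPAR response element, searched on both strands as a direct repeat of AGGTCA with 1 base between the copies, was in none of the 11 windows of the 10 genes and in 0.0335% of all windows. These are matches of letters only.

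Of the 20067 cells in the table, 20033 had over 300 genes and were clustered, and 16839 fell in clusters named by marker genes. Rods (6984 cells), cones (1126), bipolar cells (3596), amacrine cells (3287) and Müller glia (1425) were large enough for UMIs to be summed per mouse. Their markers were highest in their own class of the 5 for 12 of 12, 9 of 9, 17 of 18, 21 of 22 and 15 of 15 markers. The remaining 3194 cells had too few markers to be named and were nearest to rods. Mice held 2565568 to 6517776 UMIs, with medians of 1003.5 to 2341 UMIs per cell. Libraries shared 1157 cell barcodes (6 to 52 in each of 55 pairs), and cells with a shared barcode were in the same class in 20.6% of pairs, against 21.2% given by the class shares.

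The 3 control libraries stood apart from the other 8. Named rods were 9.53 to 19.0% of the cells in control mice and 37.4 to 48.2% in Phase I ROP mice. The control rod sums rested on 75 to 284 cells. These shares leave out the unnamed cells nearest to rods, so they depend on the naming of clusters. Control mice held 138, 146 and 250 unnamed cells beside 135, 75 and 284 named rods. Phase I ROP mice held 221, 141 and 166 unnamed cells beside 838, 523 and 1114 named rods. Summed over all cells, Rn7sk, a small nuclear RNA, was at 193 to 290 CPM (counts of the gene for every 1000000 UMIs of the sum) in controls and 1.15 to 16.2 CPM in the other 8 mice, while the immediate early gene Fosb was at 0.39 to 0.89 CPM in controls and 116 to 231 CPM in the others. In rods, 14 of 15 tested genes of a cell dissociation response list were higher in Phase I ROP than in control and none was lower. Of all genes tested in rods, 18.4% were higher and 15.6% lower. The list had 10 of 13 higher in cones (10.9% of all genes) and 13 of 18 in Müller glia (5.81%). It had 8 of 11 higher and 2 lower in bipolar cells (21.3% and 23.9%), and 12 of 14 higher and 2 lower in amacrine cells (18.3% and 20.5%). Genes were tested only if enough mice passed a filter on low counts. How many genes of this list passed it only through the Phase I ROP mice was not counted. The counts are therefore not read as a result about the list. Rod RNA in other classes also moved with the groups: the summed level of 5 rod markers was 519 to 872 CPM in control bipolar cells and 1096 to 1585 CPM in Phase I ROP bipolar cells, and it was 49.0 to 290 and 515 to 1739 CPM in Müller glia. Cones held the most, and the summed level there was 33.7 to 40.9% of that in rods without a diet and 64.5 to 81.1% with one. As all controls share these features, a library effect and the treatment cannot be told apart in Phase I ROP versus control.

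Levels of the receptors differed in pattern between the classes. The values are descriptions, without a test, because the classes were made from the same cells. Adipor1 was highest in photoreceptors: its median over the 11 mice was 344 CPM in rods (range 114 to 566), 255 CPM in cones (81.0 to 303), 123 CPM in bipolar cells (56.2 to 153), 97.3 CPM in Müller glia (38.8 to 165) and 89.2 CPM in amacrine cells (66.9 to 127). Rods exceeded cones in 10 of 11 mice and cones exceeded bipolar cells in 10 of 11, while Müller glia exceeded amacrine cells in 6 of 11, so the lowest ranks did not separate. Cones held the most rod marker RNA, above all in diet-fed mice, and rod RNA was not subtracted from cone sums. How much of the cone level of Adipor1, or of the genes below, is rod RNA was not tested. Adipor2 was more even, with medians of 59.1 CPM in rods (0 to 71.5), 39.3 in Müller glia (18.0 to 67.0), 38.0 in bipolar cells (12.7 to 48.9), 36.2 in cones (0 to 65.8) and 34.8 in amacrine cells (10.9 to 59.4). No neighbouring pair in the order of Adipor2 was separated in more than 8 of 11 mice. Rods exceeded bipolar cells in 9 of 11 mice and amacrine cells in 9 of 11.

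Ppara was detected mostly in photoreceptors and in the unnamed cells nearest to rods (33 UMIs, 7.13 CPM pooled). Rods held a median of 7.85 CPM (0 to 18.4), and 9 of 11 mice had at least 1 UMI. Cones held 0 UMIs in all control and Phase I ROP mice and 1 to 8 UMIs in each of the 5 diet-fed mice, whose cones also held the most rod marker RNA, so cone and rod Ppara cannot be told apart there. Müller glia held 0 UMIs in every mouse, and bipolar and amacrine cells held at most 1 UMI in any mouse. Pooled over mice, endothelial cells had 0 UMIs of 682826, where 3 counts, the limit used here for a count of 0, would be 4.39 CPM (5.40 CPM at the upper end of the exact Poisson interval), so a level as low as that of some rod sums was not detectable in the smaller classes.

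The carnitine transferase Cpt1a followed photoreceptors, as Adipor1 did. Its medians were 167 CPM in rods (38.1 to 241), 153 CPM in cones (26.0 to 196), 31.4 CPM in Müller glia (9.83 to 94.2), 16.8 CPM in bipolar cells (2.31 to 49.4) and 4.86 CPM in amacrine cells (0 to 16.3). Cones exceeded Müller glia in 10 of 11 mice, and bipolar exceeded amacrine cells in 11 of 11. Cpt2, the inner membrane partner, had medians of 31.7 CPM in cones, 22.2 in rods, 12.9 in Müller glia, 7.92 in bipolar and 2.28 in amacrine cells, and bipolar exceeded amacrine cells in 10 of 11 mice.

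The 3 acyl-CoA dehydrogenases had different patterns. Acadl, the long-chain enzyme, was highest in Müller glia among the 5 classes, with a median of 46.5 CPM (31.3 to 79.7) against 7.54 CPM in rods (1.26 to 30.8), and Müller glia exceeded rods in 11 of 11 mice. Its medians in bipolar cells, amacrine cells and cones were 1.53, 0.970 and 0 CPM. Acadl was also present in endothelial cells, where 88 UMIs pooled over 11 mice gave 129 CPM (95% exact Poisson interval 103 to 159, counting error only). Acadvl was highest in rods at 40.4 CPM (12.3 to 55.4), followed by cones at 28.6, Müller glia at 19.6, bipolar cells at 5.14 and amacrine cells at 4.56 CPM, and Müller glia exceeded bipolar cells in 11 of 11 mice. Acadm was present in all 5 classes, with medians of 65.0 CPM in rods, 58.6 in cones, 55.2 in Müller glia, 22.4 in amacrine cells and 37.7 in bipolar cells.

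The trifunctional protein subunits were led by Müller glia and rods, which did not separate. Hadha had medians of 36.2 CPM in Müller glia (20.6 to 59.6), 31.2 in rods (0 to 50.4), 21.6 in cones, 12.2 in amacrine cells and 17.7 in bipolar cells. Hadhb had medians of 92.7 CPM in Müller glia (39.2 to 137), 90.5 in rods (67.4 to 113), 61.1 in cones, 41.7 in amacrine cells and 54.8 in bipolar cells. For both subunits Müller glia exceeded rods in 7 of 11 mice. Over the 55 sums of mouse and class, the log2 CPM of Hadha and Hadhb had a Pearson correlation of 0.38, given as a description because the sums share mice and libraries.

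The classes with few cells were pooled over mice and carry counting intervals only. Adipor1 was at 252 CPM in microglia (59 cells, 95% exact Poisson interval 180 to 343), 158 CPM in endothelial cells (113 cells, 130 to 191) and 76.4 CPM in retinal ganglion cells (96 cells). Cells with pigment epithelium markers (75 cells, left from a tissue that was dissected away) held Adipor1 at 260 CPM (172 to 379) and Adipor2 at 125 CPM (66.7 to 214). Endothelial cells also held Cpt1a at 74.7 CPM (55.6 to 98.2) and Hadha at 71.8 CPM (53.1 to 94.9), and no Cpt1a UMI was found in the 31 horizontal cells, where 3 counts of 372978 UMIs would be 8.04 CPM and the exact Poisson interval ends at 9.89 CPM.

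**Figure D1:**
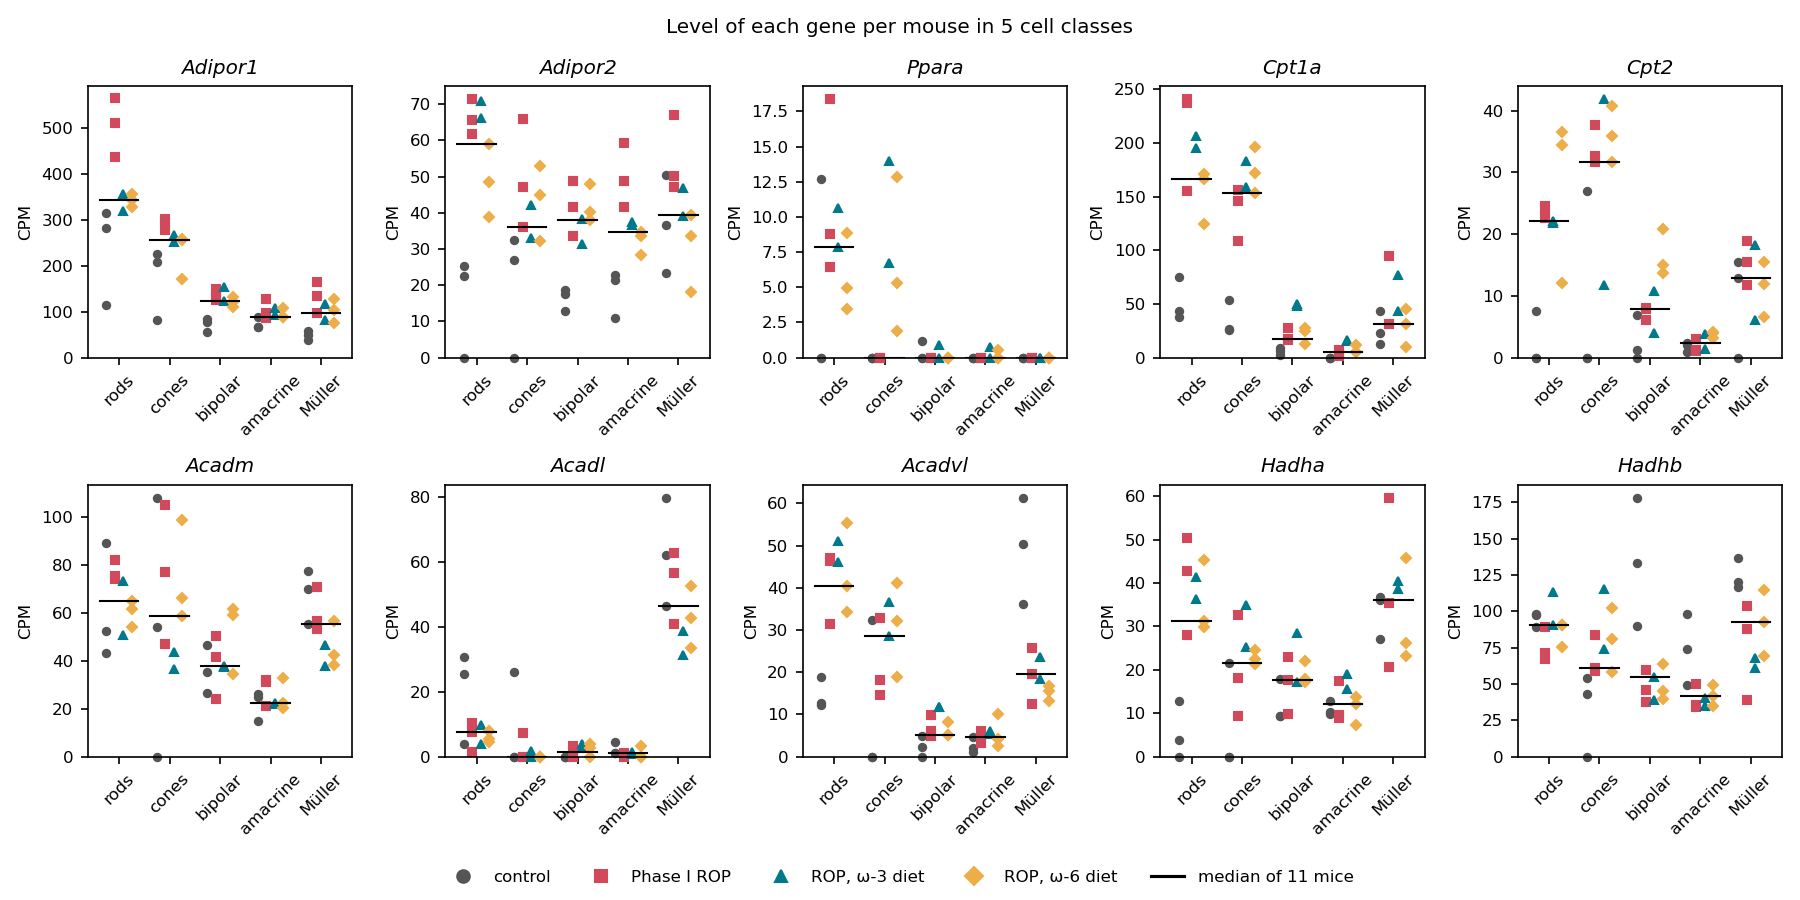
Each panel plots the CPM of 1 gene (vertical axis, from 0) in the summed UMIs of 5 cell classes, with 1 point per mouse, marked by group, and a line at the median of the 11 mice. Adipor1, Cpt1a and Ppara are highest in photoreceptors and Acadl is highest in Müller glia (median 46.5 CPM).

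By the same measure, the genes most like Adipor1 among 8450 genes with a mean of at least 20 CPM were Slc4a7 (r = 0.92), Ccdc126 (0.91), Samd7 (0.91), Tbc1d8 (0.91) and Ybx3 (0.91). Samd7 is a photoreceptor repressor. Those most like Adipor2 were Mib1 (r = 0.81), Dnajc18 (0.80), Brd1 (0.78), Zfp91 (0.78) and Mex3c (0.77). The receptors were less like each other (r = 0.23) than Adipor1 was like Cpt1a (r = 0.78). These correlations are over 55 sums that share mice, depth and libraries.

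Phase I ROP was compared with control to ask how STZ treatment changed these genes in each class. Both receptors were called higher in Phase I ROP in some of the classes. Adipor1 rose in rods and Müller glia, Adipor2 rose in bipolar and amacrine cells, Cpt1a rose in rods, and Hadhb fell in bipolar and amacrine cells. Adipor2 and Hadha in rods and Cpt1a in bipolar cells also passed the threshold, but no control mouse reached the filter on low counts for them, so they entered the test only by being high in Phase I ROP and are given as values. Summed over all cells, Adipor1, Adipor2, Cpt1a, Cpt2 and Acadvl rose and Hadhb fell. All calls are from edgeR's quasi-likelihood test on the summed UMIs at an adjusted p (Benjamini-Hochberg, over all genes tested in the class) under 0.05, and every log2 fold change is Phase I ROP minus control with its standard error. Fold changes were fitted after edgeR's TMM scaling of the sums, while CPM and statements on overlap are unscaled, so the 2 can differ. In bipolar cells Adipor1 was at 136 against 72.9 CPM pooled, with a fitted 0.49. Acadm there was at 38.7 against 36.6 CPM, with a fitted -0.32. In bipolar and amacrine cells the fitted values of the set lie below those given by CPM.

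These counts stood against a large background. In rods 7 of the 10 genes passed the filter on low counts and 4 were called, all higher, where 34.0% of all 6308 genes tested were called (18.4% higher, 15.6% lower). Of those 4, Adipor2 and Hadha reached the filter only through the Phase I ROP mice, as Acadvl did among the 3 not called, so the count is not read as a result about the set. In cones 0 of 3 were called (background 18.8%). Bipolar cells had 2 higher and 1 lower of 6 (background 45.3%, with 21.3% higher and 23.9% lower), 1 of the higher being Cpt1a, and amacrine cells 1 higher and 1 lower of 5 (38.8%, with 18.3% and 20.5%). Müller glia had 1 higher of 5 (10.8%, with 5.81% higher and 5.03% lower), and all cells had 5 higher and 1 lower of 9 (48.1%, with 24.7% and 23.4%). The mice of the groups did not overlap for 49.8% of all genes tested in rods, 58.4% in bipolar cells, 40.0% in cones, 32.6% in Müller glia, 54.3% in amacrine cells and 57.8% in all cells, against which each statement on overlap below is to be read. In cones, the test being edgeR's, 1072 genes had an unadjusted p under 0.05, Cpt1a among them, and DESeq2 called none of the 3 genes either. The shares called in bipolar and amacrine cells were near the background.

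For the receptor Adipor1, the 3 control mice had 283, 114 and 315 CPM in rods and the 3 Phase I ROP mice had 438, 566 and 511 CPM. The groups did not overlap, and the low control value rested on 9 UMIs. The log2 fold change was 0.77 ± 0.24 (adjusted p = 0.019). The call was lost under DESeq2 (0.77), with classes set by marker score (0.48), in a clustering without the pathway genes (0.63), and without control mouse 1 (0.78) or 2 (0.44) or Phase I ROP mouse 2 (0.72) or 3 (0.79). In Müller glia, Adipor1 was at 38.8, 49.0 and 56.9 CPM in controls and 97.3, 134 and 165 CPM in Phase I ROP, again without overlap. The log2 fold change was 1.29 ± 0.33 (adjusted p = 0.023 by edgeR), and it was 1.19, still called, after free rod RNA was subtracted (10.1 to 29.6 CPM of the Phase I ROP values). It was lost under DESeq2 (1.31), with sums thinned to equal depth (1.17), and without control mouse 1 (1.12) or Phase I ROP mouse 2 (1.31) or 3 (1.10).

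In bipolar cells Adipor1 was at 84.5, 56.2 and 77.2 CPM in controls and 132, 125 and 150 CPM in Phase I ROP, and the difference of 0.49 ± 0.20 did not pass (adjusted p = 0.062). In amacrine cells its groups overlapped, with a difference of 0.14 ± 0.20 (adjusted p = 0.62), and in cones the difference was 0.47 ± 0.34 (adjusted p = 0.35). In all cells Adipor1 rose by 1.14 ± 0.18 (adjusted p = 0.00034), from 91.8, 65.8 and 112 CPM to 217, 235 and 265 CPM. In sums over all cells, more cells of a type and more RNA per cell cannot be told apart. Named rods, where Adipor1 is highest, held 3.06 to 7.90% of the UMIs of control mice and 19.1 to 26.6% of those of Phase I ROP mice. The unnamed cells nearest to rods are not in these shares.

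Adipor2, the other receptor, was at 0, 25.4 and 22.5 CPM in control rods (0, 2 and 6 UMIs) and at 61.7, 71.5 and 65.7 CPM in Phase I ROP rods. The fitted log2 fold change was 1.87 ± 0.56 (adjusted p = 0.014), for a gene that passed the filter on low counts only through the Phase I ROP mice. The call was lost with classes set by marker score (1.59) and without control mouse 1 (1.24), and was not tested with sums thinned to equal depth. In amacrine cells Adipor2 was at 10.9, 21.3 and 22.8 CPM in controls and 59.4, 41.5 and 48.7 CPM in Phase I ROP, a difference of 1.10 ± 0.31 (adjusted p = 0.012) that was lost without control mouse 1 (0.80) or Phase I ROP mouse 1 (0.94). In bipolar cells it was at 12.7, 17.6 and 18.8 CPM against 41.7, 33.7 and 48.9 CPM, a difference of 0.93 ± 0.33 (adjusted p = 0.032). That call was lost under DESeq2, when the 5% of cells scored most like doublets were dropped (0.82), and without control mouse 1 (0.76) or 2 (0.96) or Phase I ROP mouse 1 (0.89) or 3 (0.81), while thinned sums gave 1.48 and marker-score classes 1.51. The level that rod RNA alone would give, the rod-marker share of each sum times the rod level, was at most 3.49 CPM of Adipor2 in bipolar and 1.65 CPM in amacrine cells of Phase I ROP mice. In Müller glia the groups overlapped and the difference of 0.48 ± 0.42 did not pass (adjusted p = 0.49).

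In all cells Adipor2 rose by 1.22 ± 0.18 (adjusted p = 0.00022), from 15.5, 20.3 and 21.7 CPM to 52.9, 50.7 and 57.4 CPM. This call and those of Adipor1, Cpt1a, Cpt2 and Hadhb in all cells were kept in all 14 alternatives.

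Ppara was too low to test in any class in this comparison. Control rods held 0, 1 and 0 UMIs and Phase I ROP rods 7, 9 and 6 UMIs. The ratio of pooled CPM was 5.05, with a 95% counting interval of 0.816 to 208 that includes no difference. Summed over all cells, controls held 0, 2 and 0 UMIs and Phase I ROP mice 9, 9 and 6 UMIs, without overlap, and the ratio was 11.1 with a counting interval of 2.75 to 96.9, in sums where rods were a larger share in Phase I ROP.

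Cpt1a, the rate-limiting step of mitochondrial entry, was at 43.1, 38.1 and 75.1 CPM in control rods and 155, 241 and 237 CPM in Phase I ROP rods. The groups did not overlap, the log2 fold change was 1.66 ± 0.32 (adjusted p = 0.00043), and the call was kept in all 17 alternatives (1.30 to 2.49). In cones it was at 27.0, 26.0 and 53.9 CPM (1, 1 and 5 UMIs) against 109, 146 and 156 CPM, and the difference of 1.53 ± 0.55, which reached the filter only through the Phase I ROP mice, missed the threshold (adjusted p = 0.054). In bipolar cells Cpt1a was at 2.31, 5.86 and 8.91 CPM in controls and 16.1, 27.7 and 16.8 CPM in Phase I ROP, a fitted difference of 1.33 ± 0.47 (adjusted p = 0.032) for a gene that no control mouse brought over the filter. The level given by rod RNA alone was 1.58 to 4.48 CPM in control and 7.57 to 12.5 CPM in Phase I ROP bipolar cells. Once that was subtracted Cpt1a no longer passed the filter on low counts, and the call was also lost under DESeq2, without a filter, and without control mouse 1 (0.96) or 2 (1.32) or any Phase I ROP mouse (1.10 to 1.47). It was not tested with thinned sums, with marker-score classes or without the top doublet scores, and was kept in 6 of 17 alternatives.

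Control amacrine cells held 0 Cpt1a UMIs in each of 3 mice and Phase I ROP amacrine cells 1, 6 and 6 UMIs, which was at least 4.49-fold higher against a floor of 3 counts over the control group. The level given by rod RNA alone, 3.17 to 5.95 CPM, was near the 1.06 to 6.92 CPM measured in those Phase I ROP sums. In all cells Cpt1a rose by 2.54 ± 0.26 (adjusted p = 2.3e-05), from 10.7, 7.01 and 16.3 CPM to 63.5, 80.4 and 99.8 CPM. Cpt2 was not tested within classes: rods held 0, 0 and 2 UMIs in controls and 19, 12 and 21 UMIs in Phase I ROP, a CPM ratio of 5.97 (95% counting interval 1.57 to 50.6). In all cells Cpt2 rose by 1.52 ± 0.34 (adjusted p = 0.0038), from 4.05, 2.34 and 5.34 CPM to 15.1, 11.7 and 14.3 CPM.

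Among the dehydrogenases no call was made within a class. Acadm overlapped between groups in all 5 classes, with log2 fold changes from -0.32 ± 0.33 in bipolar cells to 0.35 ± 0.65 in cones. Acadvl in rods was at 12.3, 12.7 and 18.8 CPM in controls (2, 1 and 5 UMIs) and 31.5, 47.0 and 46.3 CPM in Phase I ROP, and the difference of 1.19 ± 0.54 did not pass (adjusted p = 0.092). In Müller glia Acadvl went the other way, at 50.4, 61.3 and 36.2 CPM in controls and 12.6, 25.8 and 19.6 CPM in Phase I ROP, without overlap, but it was below the filter on low counts and was not tested in that class. Acadl in Müller glia was at 46.5, 79.7 and 62.0 CPM against 40.8, 56.7 and 62.8 CPM, with a difference of -0.34 ± 0.38 (adjusted p = 0.59). In all cells Acadvl rose by 0.86 ± 0.32 (adjusted p = 0.041). That call was lost under DESeq2, with cells of more than 500 genes (0.74), and without control mouse 1 (0.87) or 2 (0.59) or Phase I ROP mouse 2 (0.87) or 3 (0.74).

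The trifunctional protein subunits, neighbours at the interval printed above, are given in turn, and the difference between them was not tested. Hadhb in bipolar cells was at 133, 178 and 90.1 CPM in controls and 59.4, 37.6 and 45.8 CPM in Phase I ROP, without overlap. It fell by 1.88 ± 0.28 on the log2 scale (adjusted p = 0.00011). In amacrine cells it was at 98.0, 73.7 and 49.0 CPM in controls and 33.9, 49.6 and 35.8 CPM in Phase I ROP. The lowest control mouse overlapped the highest Phase I ROP mouse, and Hadhb fell by 1.25 ± 0.26 (adjusted p = 0.0017). Both calls were kept in all 17 alternatives. In Müller glia Hadhb was at 120, 116 and 137 CPM against 104, 87.6 and 39.2 CPM, without overlap, and the difference of -0.81 ± 0.35 did not pass (adjusted p = 0.15). In rods the groups overlapped (98.5, 89.0 and 97.6 CPM against 89.4, 67.4 and 71.1 CPM), with a difference of -0.52 ± 0.31 (adjusted p = 0.20). In all cells Hadhb fell by 1.05 ± 0.15 (adjusted p = 0.00020), from 111, 110 and 83.4 CPM to 64.4, 56.2 and 54.5 CPM.

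Hadha was not called in bipolar or amacrine cells. In bipolar cells it was at 9.26, 9.37 and 17.8 CPM in controls and 17.7, 9.90 and 22.9 CPM in Phase I ROP (0.07 ± 0.43, adjusted p = 0.91), and in amacrine cells the difference was -0.24 ± 0.41 (adjusted p = 0.67). In rods Hadha was at 0, 1 and 1 UMIs in controls and 40, 21 and 26 UMIs in Phase I ROP (50.4, 42.9 and 28.0 CPM). The fitted log2 fold change was 3.07 ± 0.82 (adjusted p = 0.0065), and the CPM ratio was 9.98 with a 95% counting interval of 2.68 to 83.7. Hadha passed the filter only through the Phase I ROP mice. The call was lost without control mouse 3 (3.02), was 1.23 with the unnamed clusters counted as rods, and was not tested with sums thinned to equal depth, with cells of more than 500 genes, or without Phase I ROP mouse 1 or 2.

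Several genes were below the filter in a class and have levels only. Adipor2 in cones was at 27.0, 0 and 32.4 CPM in controls (4 UMIs in all) and 36.2, 65.8 and 47.1 CPM in Phase I ROP. Hadhb in cones was at 54.0, 0 and 43.1 CPM against 58.8, 61.1 and 83.3 CPM. Neither overlapped, and the control cone sums held 13 to 46 cells. Cpt1a in Müller glia was at 23.3, 42.9 and 12.9 CPM against 31.4, 30.9 and 94.2 CPM, with overlap. Hadha in Müller glia was at 27.1, 36.8 and 36.2 CPM against 59.6, 20.6 and 35.3 CPM, also with overlap. Acadl in rods was at 30.8, 25.4 and 3.76 CPM (5, 2 and 1 UMIs) against 1.26, 10.2 and 7.54 CPM, with overlap. In all cells, where these were tested, the differences of Acadl (-0.82 ± 0.33, adjusted p = 0.055), Acadm (0.34 ± 0.17, adjusted p = 0.12) and Hadha (0.43 ± 0.25, adjusted p = 0.17) did not pass by edgeR.

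**Figure D2:**
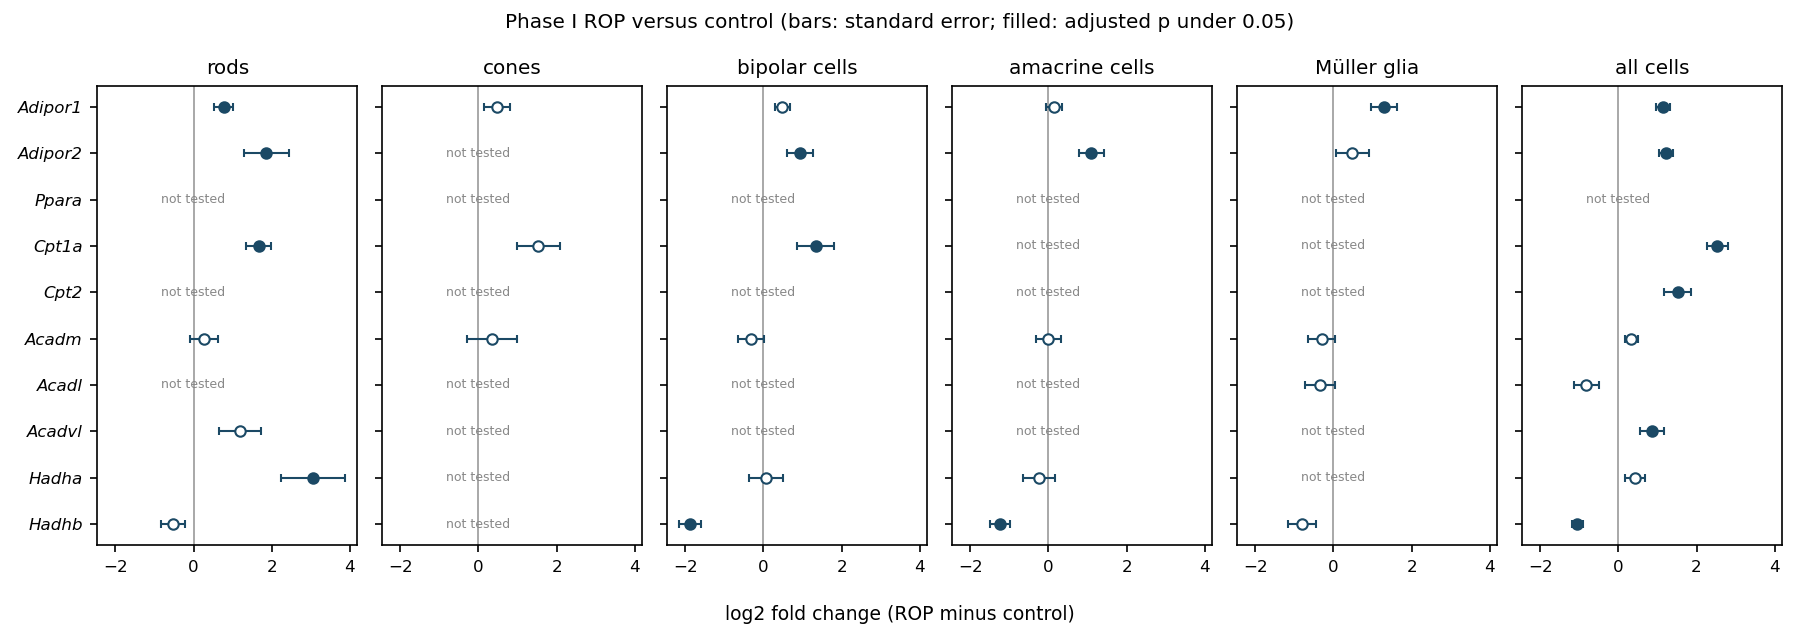
The horizontal axis gives the log2 fold change of each gene, Phase I ROP minus control, in 5 cell classes and in all cells. Points are edgeR estimates from 3 mice per group with bars of 1 standard error, filled where the adjusted p was under 0.05, and genes below the filter are marked as not tested. Cpt1a is to the right of 0 in rods and all cells. Its points in cones and bipolar cells passed the filter only through the Phase I ROP mice. Hadhb is to the left of 0 in the 5 panels where it was tested.

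Whether these differences themselves differed between classes was tested as the change in bipolar cells, amacrine cells or Müller glia minus the change in rods, in one edgeR fit over both classes. No gene of the set passed in any of the 3 contrasts (8 tested in each, of which 2, 3 and 2 had an unadjusted p under 0.05), where 1.04%, 3.94% and 3.79% of all genes tested passed. The lowest adjusted p in each contrast belonged to Hadha in amacrine cells minus rods (-3.22 ± 1.05, adjusted p = 0.061), Acadvl in Müller glia minus rods (-2.48 ± 0.81, adjusted p = 0.086) and Hadhb in bipolar cells minus rods (-1.14 ± 0.40, adjusted p = 0.21). A change called in one class and not in another is therefore not shown to differ between them here. DESeq2 was not run on these contrasts.

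Of 100 other pathway genes in the table, 45 were tested in rods (10 higher, 5 lower), 18 in cones (1 and 1), 38 in Müller glia (2 and 2), 72 in amacrine cells (11 and 12) and 66 in bipolar cells (13 and 10). In all cells 89 were tested, of which 24 were higher and 18 lower. The shares called were near those of all genes or below them. How many of these genes reached the filter only through the Phase I ROP mice was not counted. Of genes given below with a log2 difference, pooled control levels were under the filter's cutoff for Slc25a20 and Rxrb in rods (11.8 and 9.85 CPM, cutoff 26.5). So were Ppargc1a, Slc27a4 and Acsl1 in bipolar cells (2.57, 5.50 and 8.06 CPM, cutoff 13.3). The same held for Acox3 in amacrine cells, Stk11 in Müller glia, Sirt1 in cones and Rxra in all cells. These are given as fitted values. Acot13 in bipolar cells was under it in Phase I ROP (11.8 CPM).

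Called PPAR partners and coregulators were mostly higher in rods, bipolar cells and amacrine cells. Of 11 tested in rods 5 were higher and none lower, of 12 in bipolar cells 6 were higher and 1 lower, and of 11 in amacrine cells 7 were higher and 1 lower, where 18.4%, 21.3% and 18.3% of all genes were higher. In cones (7 tested) and Müller glia (4 tested) none was higher and 1 was lower. The lower gene in each was the steroid receptor coactivator Ncoa2, which fell by 1.53 ± 0.13 in bipolar cells, 1.48 ± 0.13 in amacrine cells, 1.41 ± 0.19 in Müller glia and 1.41 ± 0.35 in cones (log2, adjusted p at most 0.0089 by edgeR). Ppargc1a, the PGC-1α coactivator of mitochondrial biogenesis, had a fitted difference of 2.29 ± 0.62 in bipolar cells, from 7 control UMIs. Rxrb, a retinoid receptor that pairs with PPARs, had a fitted difference of 1.71 ± 0.63 in rods and rose by 1.38 ± 0.38 in amacrine cells.

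Of other mitochondrial oxidation genes, 1 was higher and 2 lower of 13 tested in rods, 0 and 4 of 18 in bipolar cells, and 1 and 4 of 18 in amacrine cells. The shares called lower were near those over all genes (15.6%, 23.9% and 20.5%). Müller glia had no call among 16 tested, cones none of 1, and the sums of all cells had 1 higher and 8 lower of 22, where 23.4% of all genes were lower. In rods, Echs1, the enoyl-CoA hydratase of short chains, fell by 1.35 ± 0.33, and Etfa, a subunit of the electron carrier that serves the dehydrogenases, fell by 1.16 ± 0.36. Slc25a20, the carnitine-acylcarnitine carrier that works between Cpt1a and Cpt2, had a fitted difference there of 1.75 ± 0.60 (adjusted p = 0.029 by edgeR), from 6 control UMIs. In amacrine cells Mcee, the methylmalonyl-CoA epimerase, fell by 1.48 ± 0.35. The median over this list in rods was -0.49 (0.15 over all genes), and in bipolar cells -0.39 (0.02). It was -0.51 (0.00084) in Müller glia, -0.27 (0.02) in amacrine cells and -0.21 (0.0010) in all cells. The 1 gene tested in cones was at -0.41 (0.10).

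Uptake and activation genes changed in both directions. Acsl1, an acyl-CoA synthetase that feeds Cpt1a, rose by 1.73 ± 0.39 in rods. In bipolar cells the fitted differences of Acsl1 and of the transporter Slc27a4 were 1.34 ± 0.38 and 1.84 ± 0.41. Fabp7, a fatty acid binding protein of glia and progenitors, fell by 1.82 ± 0.28 in rods, from 621 to 193 CPM pooled. How much of the Fabp7 in the rod sums was RNA of other cells was not tested. The thioesterase Acot13 fell by 1.61 ± 0.27 in amacrine cells and had a fitted difference of -1.74 ± 0.37 in bipolar cells. Dbi, the acyl-CoA binding protein, fell by 0.75 ± 0.22 in Müller glia.

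Of the peroxisomal genes, Decr2, a dienoyl-CoA reductase, fell by 2.70 ± 0.45 in bipolar cells. Acox3, an acyl-CoA oxidase, had a fitted difference of 1.35 ± 0.49 in amacrine cells. In adiponectin signalling, Stk11, the kinase upstream of AMP-activated kinase, had a fitted difference of 2.23 ± 0.43 in Müller glia. That of the deacetylase Sirt1 was 2.12 ± 0.68 in cones, from 4 control UMIs. Of 7 genes of that list tested in rods none was called, of 13 in bipolar cells 3 were higher (21.3% of all genes) and of 16 in amacrine cells 2 were higher (18.3% of all genes). Among the higher genes, Prkaa1 and Prkag2 in bipolar cells had pooled control levels under the filter's cutoff (10.6 and 7.70 CPM, cutoff 13.3). So did Prkaa1 in amacrine cells (6.17 CPM, cutoff 10.3). Of known PPARα targets, 2 of 2 tested in rods were higher (18.4% of all genes), 1 of them Slc25a20, whose pooled control level was under the filter's cutoff. None of 2 in bipolar cells and none of 1 in cones was called. In amacrine cells 1 of 3 was lower (20.5% of all genes) and in Müller glia 1 of 3 was higher (5.81%). In all cells 1 of 9 was higher and 1 lower (24.7% and 23.4%). In all cells the largest fitted differences upward were those of Rxra (2.54 ± 0.33), Ppargc1b (1.88 ± 0.26) and Lpin1 (1.80 ± 0.21). The largest downward were those of Decr2 (-1.49 ± 0.25), Ncoa2 (-1.33 ± 0.11) and Fabp5 (-1.23 ± 0.12).

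The second comparison asks whether the fatty acid class in the diet changed these genes in Phase I ROP. No gene of the set was called in any class or in all cells, with 8 genes tested in each of rods, cones and bipolar cells, 6 in amacrine cells, 7 in Müller glia and 10 in all cells. The background was 0.0181% of genes called in rods (2 of 11033) and 0% in the other 4 classes and in all cells, although 283 (Müller glia) to 1328 genes (all cells) had an unadjusted p under 0.05. DESeq2 called none of the set either, and no alternative did. Only 2 mice were on the ω-3 diet, and the values below do not show that the diets had equal levels. Log2 fold changes are ω-6 minus ω-3.

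Adipor1 was close between the diets. In all cells it was at 190 and 221 CPM on the ω-3 diet and 210, 192 and 179 CPM on the ω-6 diet, a difference of -0.01 ± 0.14 (adjusted p = 0.99). In rods it was at 319 and 356 CPM against 344, 357 and 328 CPM (0.13 ± 0.15, adjusted p = 0.80). Over the 5 classes its difference lay between -0.13 ± 0.20 in cones and 0.14 ± 0.31 in Müller glia, and its groups overlapped in each. Adipor2 in rods was at 71.0 and 66.1 CPM on the ω-3 diet and 48.5, 59.1 and 38.7 CPM on the ω-6 diet. These did not overlap, as was so for 28.3% of genes tested in rods (20.1% in bipolar cells, 25.1% in cones, 19.4% in Müller glia, 28.8% in amacrine cells and 26.9% in all cells), and the difference of -0.37 ± 0.23 did not pass (adjusted p = 0.60).

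Cpt1a had the lowest unadjusted p of the set. In bipolar cells it was at 48.0 and 49.4 CPM on the ω-3 diet and 24.9, 13.0 and 27.4 CPM on the ω-6 diet, without overlap. The difference was -1.15 ± 0.35, with an unadjusted p of 0.0066 and an adjusted p of 0.99 by edgeR. The level given by rod RNA alone there was 19.2 to 19.8 CPM on the ω-3 and 10.1 to 19.6 CPM on the ω-6 diet. In amacrine cells Cpt1a was at 15.3 and 16.3 CPM against 4.86, 11.8 and 4.81 CPM (-0.99 ± 0.46, adjusted p = 0.50), in Müller glia the difference was -0.92 ± 0.48 with overlap, in rods -0.27 ± 0.17 without overlap, and in cones 0.05 ± 0.19. The difference between bipolar cells and rods in this change did not pass (-0.92 ± 0.34, unadjusted p = 0.010, adjusted p = 1 by edgeR).

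Acadm in cones was at 43.8 and 36.6 CPM on the ω-3 diet and 58.6, 66.1 and 98.6 CPM on the ω-6 diet, a difference of 0.91 ± 0.31 (unadjusted p = 0.010, adjusted p = 0.585 by edgeR). Cpt2 in bipolar cells was at 3.92 and 10.8 CPM against 20.7, 15.0 and 13.7 CPM (1.198 ± 0.56, adjusted p = 0.99). Hadhb in Müller glia was at 67.9 and 61.0 CPM against 115, 69.3 and 92.7 CPM (0.55 ± 0.31, adjusted p = 0.99). Hadha differed by -0.60 ± 0.39 in amacrine cells and by -0.03 ± 0.27 in rods. Ppara, tested in all cells only, was at 3.88 and 4.60 CPM against 2.76, 3.21 and 3.44 CPM (-0.36 ± 0.36, adjusted p = 0.81). Of the 100 other pathway genes none was called between the diets in any class or in all cells, with 57 to 94 tested.

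**Figure D3:**
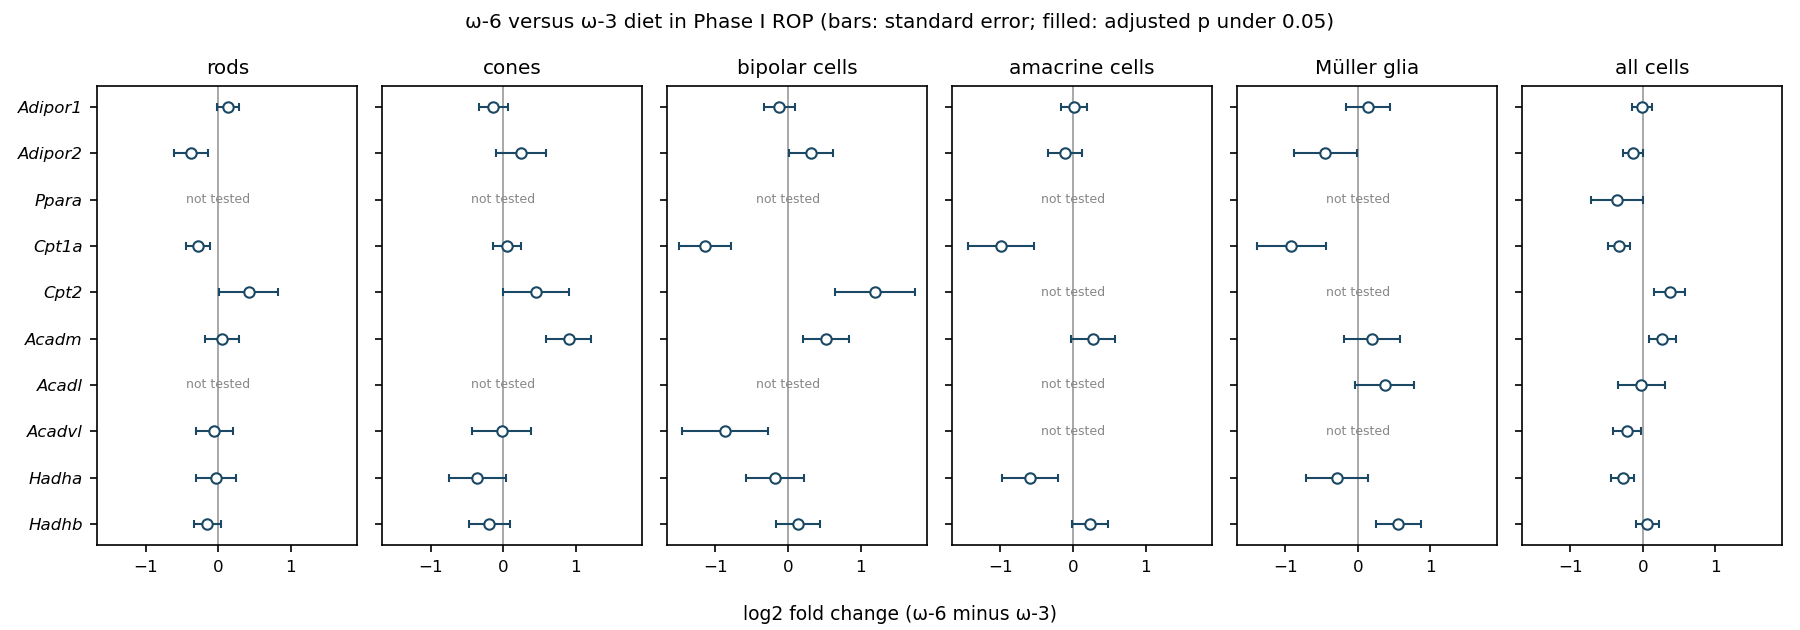
The axes and symbols are those of the plot of Phase I ROP versus control, here for ω-6 minus ω-3 diet (3 and 2 mice). No point is filled, and the farthest from 0 are Cpt1a (-1.15) and Cpt2 (1.198) in bipolar cells.

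Set side by side without a test, since litter and diet change together, the diet-fed mice lay with the other Phase I ROP mice for Cpt1a in rods and Hadhb in bipolar cells. Cpt1a in rods was at 195 and 207 CPM on the ω-3 diet and 171, 167 and 124 CPM on the ω-6 diet, above all 3 controls, whose highest was 75.1 CPM. Hadhb in bipolar cells was at 54.8 and 38.6 CPM and at 63.6, 44.9 and 39.4 CPM, below all 3 controls, whose lowest was 90.1 CPM. Hadha in rods was at 36.4 and 41.5 CPM and at 31.2, 45.3 and 29.9 CPM, with the highest control at 12.7 CPM. The control rods held 2 Hadha UMIs in all, and Hadha reached the filter there only through the Phase I ROP mice. Adipor1 in rods was an exception, since all 5 diet-fed mice (319 to 357 CPM) were below the lowest Phase I ROP mouse (438 CPM) and above the highest control (315 CPM).

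**Figure D4:**
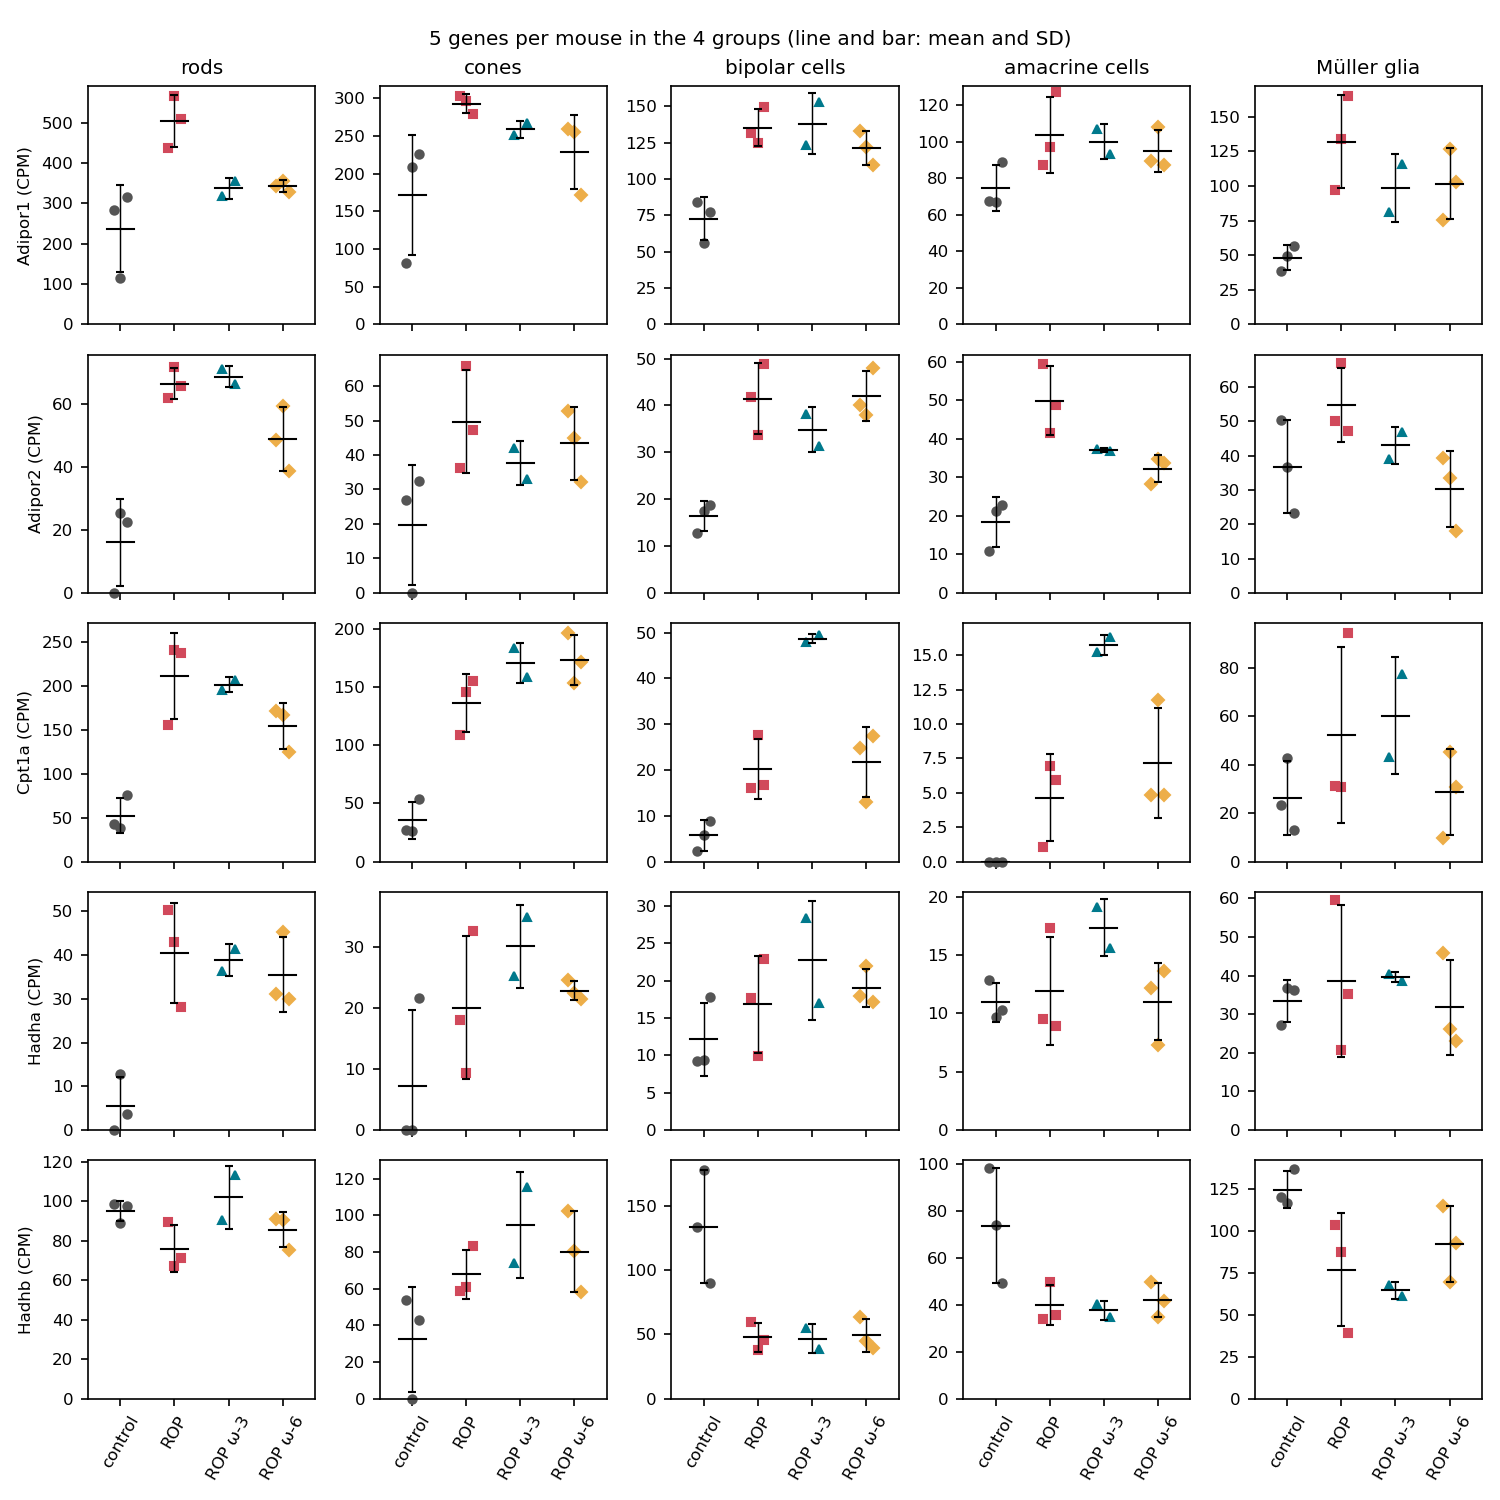
Rows are 5 genes and columns 5 cell classes. The vertical axes give CPM from 0, points are mice of the 4 groups (3, 3, 2 and 3), and lines with bars are the mean and SD. The control mice stand apart from the other 8 for Cpt1a in rods and cones (low) and for Hadhb in bipolar cells (high, 90.1 to 178 CPM).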

How the data were processed

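Retinas of 11 mice were profiled by inDrop. The authors processed the reads with the inDrop pipeline of bcbio-nextgen and deposited raw UMI counts per gene and cell in 1 table with a column per cell (whole-number counts, not normalized, with genome builds mm10 and GRCm38.p6 named in the submitters' processing notes). Whether counting used strand was not given in the sources used here, and Acadvl overlaps Dvl2, Hadha overlaps Garem2 and Acadl overlaps Gm15793.

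Cells with over 300 genes were clustered in Seurat 5.3.0 after the study's methods (2000 variable genes, 75 components, resolution 0.2). The variable genes held 14 other pathway genes and none of the 10 genes. Clusters were named when at least 3 markers were higher, and 9 clusters stayed unnamed. Doublets were not removed because the caller marked 0.359% of cells. The 5% of cells with the highest scores were left out in an alternative. UMIs were summed per mouse and class (at least 10 cells) and tested with edgeR 4.0.16 (quasi-likelihood, TMM scaling, filterByExpr). DESeq2 1.42.0 and other settings were alternatives. Counting the unnamed clusters as rods and testing the difference between classes were chosen after seeing the data. CPM is the gene's UMIs for every 1000000 UMIs of the sum. Rod RNA in a sum was taken from 5 rod markers. The tests were tested on simulated data.

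The rule names all 10 genes, and those with few UMIs in a class are given by their levels. Of the pathway lists, the 3 largest increases and the 3 largest decreases among called genes with non-overlapping mice are named per comparison and class, and the 5 genes most correlated with each receptor. Some genes that this rule names are not reported here. The genes and lists were chosen with earlier results of these data known. Intervals and floors cover counting error only. The labels do not say that replicate numbers pair mice, and their correlations are given with the other checks on processing. Classes with fewer cells per mouse are given pooled, without a test. The p-values measure the spread between mice that the labels call littermates. Gene positions are from GENCODE M21, a release other than the one the authors counted on, and promoters of all 10 genes were found in RefSeq.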

Additional observations from a re-analysis of the deposited data

How the results depend on the processing

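Alternatives covered DESeq2, scaling, filters, all groups in 1 fit, thinned sums, doublet scores, the naming of classes, free rod RNA and each mouse left out. None reversed a called value. Calls of the 10 genes in Phase I ROP versus control moved by over 1.5 times as follows. In rods, 2 were called with marker-score classes, 2 with thinned sums and 7 with unnamed clusters counted as rods. In cones, 1 was called with all groups in 1 fit, with marker-score classes and with median-of-ratios scaling. In bipolar cells 1 was called under DESeq2 and 1 without the highest doublet scores, and in Müller glia 0 under DESeq2 and 0 with thinned sums. Of the other pathway genes, DESeq2 called 1 in cones, 12 in bipolar and 15 in amacrine cells, marker-score classes 8 in rods, 7 in cones and 15 in amacrine cells, thinned sums 4 in rods and 0 in cones, and all groups in 1 fit 8 in cones. Leaving out each mouse gave 2 to 5, 0 to 1, 1 to 3, 1 to 2, 0 to 1 and 5 to 7 calls of the 10 genes in rods, cones, bipolar, amacrine, Müller and all cells, and 6 to 12, 0 to 5, 14 to 22, 15 to 22, 2 to 5 and 31 to 37 of the other pathway genes.

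The labels do not say that the numbers behind the replicate block pair mice. Over the classes and all cells, deviations of same-numbered mice correlated at -0.036 to 0.243 for Phase I ROP and control, and at 0.081 to 0.515 for the diets, which have only 2 such pairs. With the block 1 other pathway gene was called in cones, and Acadm in amacrine cells was 0.00543. Between the diets the block gave no call of the 10 genes, with log2 differences of 0.055 for Acadvl and 0.061 for Hadha in rods, 0.029 for Adipor1 in cones, -0.0205 for Acadm in Müller glia, and 0.034 for Adipor1 and 0.042 for Acadl in all cells.

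Sign changes were all of values not called. For Phase I ROP versus control, Acadm in amacrine cells was 0.023 with all groups in 1 fit, 0.00176 with over 500 genes, 0.00456 when clustered without the pathway genes, 8.81e-05 with rod RNA subtracted, 0.024 without a filter and 0.065 with thinned sums. Hadha in bipolar cells was -0.00444 when clustered without the pathway genes and -0.11 with rod RNA subtracted, and Hadhb in rods was 0.077 with marker-score classes. Between the diets, over 500 genes gave -0.088 for Acadm in rods and 0.052 for Acadvl in cones. Marker-score classes gave -0.080 for Acadm in rods, 0.13 for Acadvl in cones, 0.00389 for Adipor1 and -0.27 for Hadhb in bipolar cells, and -0.15 for Adipor1 and 0.12 for Adipor2 in amacrine cells. Clustering without the pathway genes gave -0.0248 for Adipor1 in amacrine cells, and rod RNA subtraction -0.013 for Adipor1 in Müller glia. Thinned sums gave 0.11 for Acadvl and 0.049 for Hadha in rods, 0.054 for Acadvl in cones and 0.0011 for Adipor1 in all cells. Without the highest doublet scores, amacrine cells gave -0.000218 for Adipor1 and 0.0099 for Adipor2. The cause of these changes was not tested.

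With each mouse left out, Phase I ROP versus control spanned -0.21 to 0.15 for Acadm and -0.013 to 0.28 for Adipor1 in amacrine cells, -0.089 to 0.83 for Acadm in cones and -0.19 to 0.45 for Hadha in bipolar cells. Between the diets, rods spanned -0.19 to 0.40 for Acadm, -0.26 to 0.065 for Acadvl, -0.26 to 0.11 for Hadha and -0.31 to 0.064 for Hadhb. Cones spanned -0.23 to 0.034 for Adipor1, -0.045 to 0.16 for Cpt1a, -0.19 to 1.63 for Cpt2, -0.33 to 0.22 for Acadvl and -0.48 to 0.17 for Hadhb. Bipolar cells spanned -0.24 to 0.012 for Adipor1, -0.52 to 0.26 for Hadha and -0.12 to 0.44 for Hadhb, and amacrine cells -0.0914 to 0.12 for Adipor1. Müller glia spanned -0.14 to 0.40 for Adipor1 and -0.015 to 0.34 for Acadm, and all cells -0.13 to 0.13 for Adipor1, -0.35 to 0.16 for Acadl and -0.064 to 0.17 for Hadhb. Control rods and cones (13 to 46 cone cells per mouse) limit the depth.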
